A study of Mus musculus with 32 samples.

Results

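The distal end of the maxilla, the upper jaw primordium, was compared between mouse embryos lacking Alk5 in the neural crest and their control littermates at embryonic day 13.5. The comparison used the arrays whose titles name the distal maxilla, 4 mutant and 4 control, which make 8 of the 32 arrays of the series. The other 24 arrays hold the proximal maxilla and both ends of the mandible, again with 4 arrays of each genotype. Each gene was represented by 1 probe set, the one with the highest mean over all 32 arrays, which gave 13705 genes.

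The mutants came from crosses of Wnt1cre;Alk5fl/+ with Alk5fl/fl mice, labelled C57B6, and were recognised by their cleft palate and calvarial defect. Controls were littermates labelled only as control, so whether they carried floxed alleles or Cre was not specified. Wnt1-Cre is active in the neural crest, which forms most of the jaw mesenchyme, so epithelium, muscle, vessels, blood cells and macrophages, which have other origins, should keep the receptor. The labels number the arrays 1 to 4 in each genotype and do not say whether each came from a separate embryo, and the spread behind each p-value may therefore be partly technical.

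TGF-beta ligands assemble type II and type I receptors at the cell surface. ALK5, the product of Tgfbr1, is the type I receptor for TGF-beta itself and phosphorylates Smad2 and Smad3, which join Smad4 and regulate transcription, including that of many extracellular matrix genes. In the palate and jaw this pathway is known for its part in mesenchymal growth, palatal fusion and skeletal differentiation.

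The arrays of the distal maxilla were not uniform within a genotype. Over the tested genes, pairs of mutant arrays correlated at 0.926 to 0.996, pairs of control arrays at 0.953 to 0.993, and mutant with control arrays at 0.931 to 0.987. The first principal component of the 8 arrays (42.5% of the variance) did not separate the genotypes, and placed mutant array 4 beside control array 2 at one end and mutant array 1 at the other. Xist was high on mutant array 1 (13.34) and control array 2 (13.95), where Y-linked genes were low, so each genotype held 1 array with this pattern. The remaining mutant arrays had Xist at 6.54 to 6.71 and the remaining control arrays at 6.52 to 9.69, where control array 3 held the 9.69 together with high Y-linked genes. Mutant array 1 and control array 1 also stood apart in the spike-in probe sets added at hybridization, which averaged 13.83 and 13.80, against 12.56 to 13.11 on the other arrays. Results are therefore also given without mutant array 1 and control array 2.

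Of the 13705 genes, 108 differed between the genotypes in limma's test at an adjusted p under 0.05 (0.788%), of which 49 were higher in the mutant (0.358%) and 59 lower (0.43%). Their log2 differences had sizes of 0.28 to 1.93 with a median of 0.75, against a median size of 0.11 over all genes. Among the genes tested, 43.3% had a difference above 0 and 56.7% below 0, with a median of -0.03. At an unadjusted p under 0.05 in limma's test, 668 genes were higher and 1105 lower, 12.9% of all genes together. In 99 of the 108 the mutant arrays lay all above or all below the control arrays, as they did in 5.65% of all genes (2.18% above, 3.47% below). The 108 were selected on these same arrays, so their higher share is no separate support. The calls rested on a spread estimated over all 32 arrays. The 3' minus 5' difference of the Gapdh control probe sets, a check of RNA quality, was -0.17 to 0.12 on the 8 distal maxilla arrays. It reached 2.23 on an array of another region, which also entered that spread. The effect of that array alone on these calls was not tested. With only the 8 arrays of the distal maxilla 2 genes passed, Dnajc6, which is 1 of the 108, and Cldn9, which is not, both named after their values were seen. Each of the 108 had an unadjusted p under 0.05 in that fit, which is no separate check, as the same differences had selected them. Leaving out 1 array gave 111, 40, 62 and 146 genes for mutant arrays 1 to 4, and 22, 328, 25 and 36 for control arrays 1 to 4. With mutant array 1 and control array 2 left out 419 genes passed, 254 higher and 165 lower, among them 76 of the 108. With mutant array 1 and control array 1 left out, the arrays with high spike-in values, 30 genes passed, 26 higher and 4 lower. Of the 22 that passed without control array 1 alone, 16 were higher and 6 lower, so most of the 59 falls depended on that array. The split of calls also depended on scaling, as 124 genes were higher and 58 lower once each array was centred on its median.

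**Figure D1:**
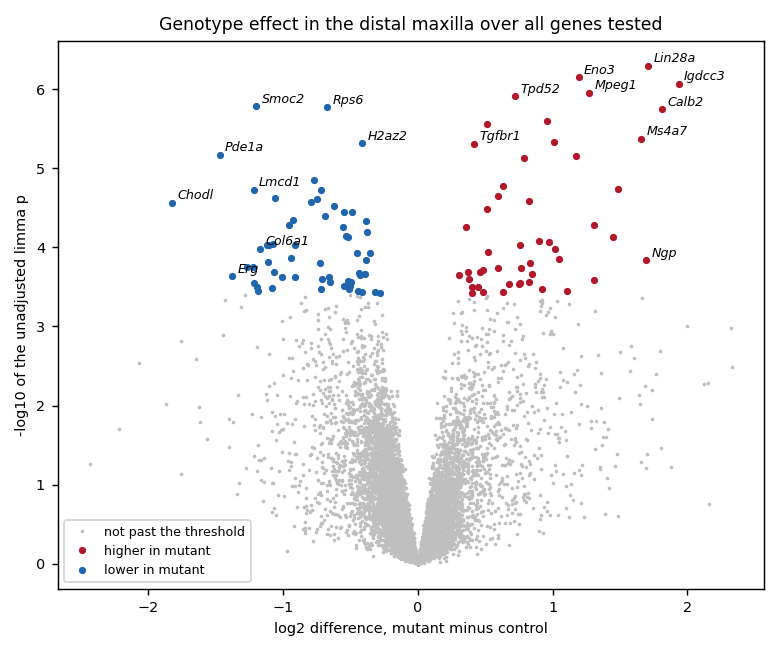
Each point is 1 of the 13705 genes. The horizontal axis is the log2 difference, mutant minus control, and the vertical axis is -log10 of the unadjusted limma p. The 49 red genes passed the test as higher in the mutant and the 59 blue genes as lower, and the largest called difference was the 1.93 of Igdcc3.

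The targeted gene did not read lower in the mutants. Tgfbr1 read 13.32, 13.04, 12.99 and 12.91 on the mutant arrays, against 12.59, 12.80, 12.64 and 12.58 on the control arrays. All mutant values lay above all control values, and the difference of 0.41 ± 0.07 (SE) passed the test (adjusted p = 0.00477). The other 2 probe sets of Tgfbr1 differed by 0.66 and 0.31 and did not pass. Where the probes lie relative to the floxed part of the gene is not known here, so the reading does not check the labels.

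Few other genes of the receptor pathway passed the test. Of all genes, 0.358% were called higher and 0.43% lower, and 12.9% had an unadjusted p under 0.05. Of 18 measured ligands, receptors and co-receptors, Tgfbr1 rose, 0 fell and 17 did not pass, with a median difference of 0.00. Among 17 measured Smads and Smad regulators 0 passed after adjustment, and 3 had an unadjusted p under 0.05, each below 0. The median of that list was -0.05. Of 25 TGF-beta response genes 1 fell, Lmcd1, which encodes a LIM domain protein that can repress GATA factors, and the list median was -0.20. At an unadjusted p under 0.05 in limma's test, 1 of the 25 was higher and 8 were lower. Lmcd1 read 7.80, 8.25, 8.53 and 8.24 in the mutants, against 9.69, 9.24, 9.09 and 9.67 in the controls. The groups did not overlap, and the mutant mean was 2.33-fold lower (-1.22 ± 0.23, adjusted p = 0.0118).

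In the BMP branch, Bmp2, a ligand of bone and cartilage formation, and Acvr1, a type I receptor for BMPs, fell, 0 genes rose and 22 of the 24 measured genes did not pass. The median of the branch was -0.21, and 0.43% of all genes were called lower. Leaving out 1 array gave 0 to 4 falls in the branch, with 0 in limma without mutant array 2, control array 1 or control array 3, and 4 without control array 2. Bmp2 was 9.44, 8.90, 9.67 and 9.72 in the mutants, against 10.68, 10.08, 10.40 and 10.29 in the controls (-0.93 ± 0.19, adjusted p = 0.018). No mutant value of Bmp2 reached the lowest control value. Acvr1 had 10.24, 10.72, 10.76 and 10.70 in the mutants, against 11.22, 11.00, 11.07 and 10.91 in the controls (-0.45 ± 0.11, adjusted p = 0.0478). Other probe sets of Acvr1 past the filter differed by -0.39 and 0.0064 and did not pass. The groups of the tested probe set were also separate, though without mutant array 1 and control array 2 it did not pass (adjusted p = 0.0865). Bmpr1b, another type I receptor, averaged 10.07 ± 0.49 in the mutants and 8.88 ± 0.89 in the controls (SD, n = 4 each) and did not pass (adjusted p = 0.0718), but did without those 2 arrays (difference 1.87, adjusted p = 0.000261). On control array 2 it read 10.20, against 8.31 to 8.62 on the other control arrays.

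Falls among extracellular matrix genes included chains of collagen VI, Smoc2 and Ogn. Of 28 collagen chain genes 3 fell, 0 rose and 25 did not pass, with 26 of 28 differences below 0 and a median of -0.50. Of 47 proteoglycan and matrix glycoprotein genes 3 fell, 0 rose and 44 did not pass, with 41 differences below 0 and a median of -0.47. Among 26 crosslinking and remodelling enzymes the protease gene Mmp11 fell (-0.49 ± 0.10, adjusted p = 0.0154), and the median was -0.24. For comparison, 0.43% of all genes were called lower and their median was -0.03.

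Collagen VI, which forms a beaded filament network around cells, is built from 3 classical chains encoded by Col6a1, Col6a2 and Col6a3. Col6a1 read 10.79, 10.12, 10.17 and 10.36 in the mutants, against 12.18, 10.93, 11.35 and 11.65 in the controls. The groups were separate and the difference was -1.17 ± 0.26 (adjusted p = 0.0279). Col6a2 had 12.03, 11.30, 11.42 and 11.36 in the mutants, against 13.26, 12.05, 12.46 and 12.63 in the controls. The highest mutant value, on array 1, lay just below the lowest control value, on array 2 (-1.07 ± 0.23, adjusted p = 0.0258). For Col6a3 the values were 12.14, 11.38, 11.36 and 11.50 in the mutants, against 13.24, 12.25, 12.40 and 11.91 in the controls. Those groups overlapped through mutant array 1 and the difference of -0.86 ± 0.24 did not pass (adjusted p = 0.0913). Without mutant array 1 and control array 2 the differences were -1.51, -1.42 and -1.10 for Col6a1, Col6a2 and Col6a3, and all 3 passed (adjusted p = 0.00257, 0.00142 and 0.0236). Without control array 1, on the other hand, 0 collagen chains passed in limma's test and the median of the list was -0.31.

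Col6a1 and Col6a2 are neighbours on chromosome 10, on the same strand and 85161 bases apart in the RefSeq annotation of GRCm38.p6, with 2 predicted genes between them. As these 2 genes fell together, the windows of 300 bases around their annotated starts, taken from RefSeq, are shown. They were searched on both strands for the Smad box CAGAC, the Smad palindrome GTCTAGAC and the AP-1 motif TGANTCA. The Col6a1 window, chr10:76725995-76726294 on the minus strand, held 1 AP-1 match and no Smad box. Of the 2 Col6a2 windows, the one at chr10:76623581-76623880, also on the minus strand, held 1 Smad box, read as its reverse complement, and the other held none of the motifs. Matches are in capitals and do not overlap one another. A Smad box occurs in 49.6% of 32851 promoter windows of this length, the palindrome in 0.213% and the AP-1 motif in 7.81%, and a match is only a description of the letters.
Col6a1: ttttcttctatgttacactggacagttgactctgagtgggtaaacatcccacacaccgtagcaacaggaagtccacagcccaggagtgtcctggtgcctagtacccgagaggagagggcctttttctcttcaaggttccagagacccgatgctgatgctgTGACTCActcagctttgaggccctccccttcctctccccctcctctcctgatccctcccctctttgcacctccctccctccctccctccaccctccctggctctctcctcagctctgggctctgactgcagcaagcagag
Col6a2: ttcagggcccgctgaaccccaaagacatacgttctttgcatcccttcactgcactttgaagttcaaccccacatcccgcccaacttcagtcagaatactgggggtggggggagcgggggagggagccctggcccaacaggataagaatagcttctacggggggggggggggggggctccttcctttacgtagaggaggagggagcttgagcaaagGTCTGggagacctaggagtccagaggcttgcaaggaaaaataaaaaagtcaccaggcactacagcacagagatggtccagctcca

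Among the other matrix genes, Smoc2, a secreted calcium-binding matricellular protein gene, fell with well separated groups. It read 10.46, 9.77, 9.96 and 10.15 in the mutants, against 11.51, 10.94, 11.19 and 11.49 in the controls (-1.20 ± 0.20, adjusted p = 0.00307). Smoc2 passed whichever single array was left out. Ogn, which encodes the small leucine-rich proteoglycan osteoglycin, had 10.54, 11.01, 10.94 and 11.67 in the mutants, against 12.63, 12.13, 11.96 and 11.93 in the controls (-1.12 ± 0.24, adjusted p = 0.0258). The groups of Ogn were separate, with mutant array 4 nearest to the controls, and it did not pass without mutant array 1 and control array 2 (-0.97, adjusted p = 0.0557). The microfibril-associated gene Mfap4 fell by less, with 12.06 to 12.23 in the mutants against 12.44 to 12.71 in the controls (-0.42 ± 0.10, adjusted p = 0.0478). Mfap4 failed the test in each of the 8 omissions of a single array, and also without mutant array 1 and control array 2 (adjusted p = 0.0807). Col26a1 fell by 0.55 ± 0.12 (adjusted p = 0.0193) with overlapping groups, since control array 2 read 11.73 and the other control arrays 12.30 to 12.37. The other Col26a1 probe set past the filter differed by -0.11 and did not pass. Just outside the threshold, with separate groups, were Egfl6 (-1.28 ± 0.32, adjusted p = 0.0504) and the elastic fibre gene Emilin1 (-0.61 ± 0.15, adjusted p = 0.0571). Without mutant array 1 and control array 2, Egfl6 passed (-1.57, adjusted p = 0.0147) and Emilin1 did not (-0.29, adjusted p = 0.219).

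Markers of the skeletal tissues that make such matrix were set beside these genes. The cartilage, bone and tendon lists include collagen chain genes, so their falls are not separate from those of the matrix lists. The cartilage marker Col9a3, for example, was also the lowest collagen chain (-1.33). In this bulk tissue, fewer cells of a type and less RNA per cell cannot be told apart. Of 21 cartilage markers 20 had differences below 0 (median -0.58), of 11 bone markers 10 (median -0.67) and of 11 tendon markers 11 (median -0.73), but 0 passed after adjustment in any of these lists by limma. At an unadjusted p under 0.05, 6 cartilage, 3 bone and 6 tendon markers were lower and 0 higher. Over all 13705 genes, 1105 were lower and 668 higher at that level, 12.9% together. Mean cartilage marker levels were 8.72, 8.85, 8.65 and 9.41 on the mutant arrays, against 10.28, 10.03, 9.10 and 9.02 on the control arrays. The groups overlapped because mutant array 4 exceeded control arrays 3 and 4. Tendon marker levels did not overlap, at 7.96 to 8.35 on the mutant arrays against 8.65 to 9.21 on the control arrays. Without control array 1 the medians were -0.44 for cartilage, -0.26 for bone and -0.54 for tendon. The part of such markers in the falls of matrix genes was not tested. Skeletal muscle markers varied more within a genotype than between them, with mean levels of 6.82 to 8.10 in the mutants and 6.52 to 8.99 in the controls, and their median of -0.50 turned to 0.18 without mutant array 1 and control array 2.

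**Figure D2:**
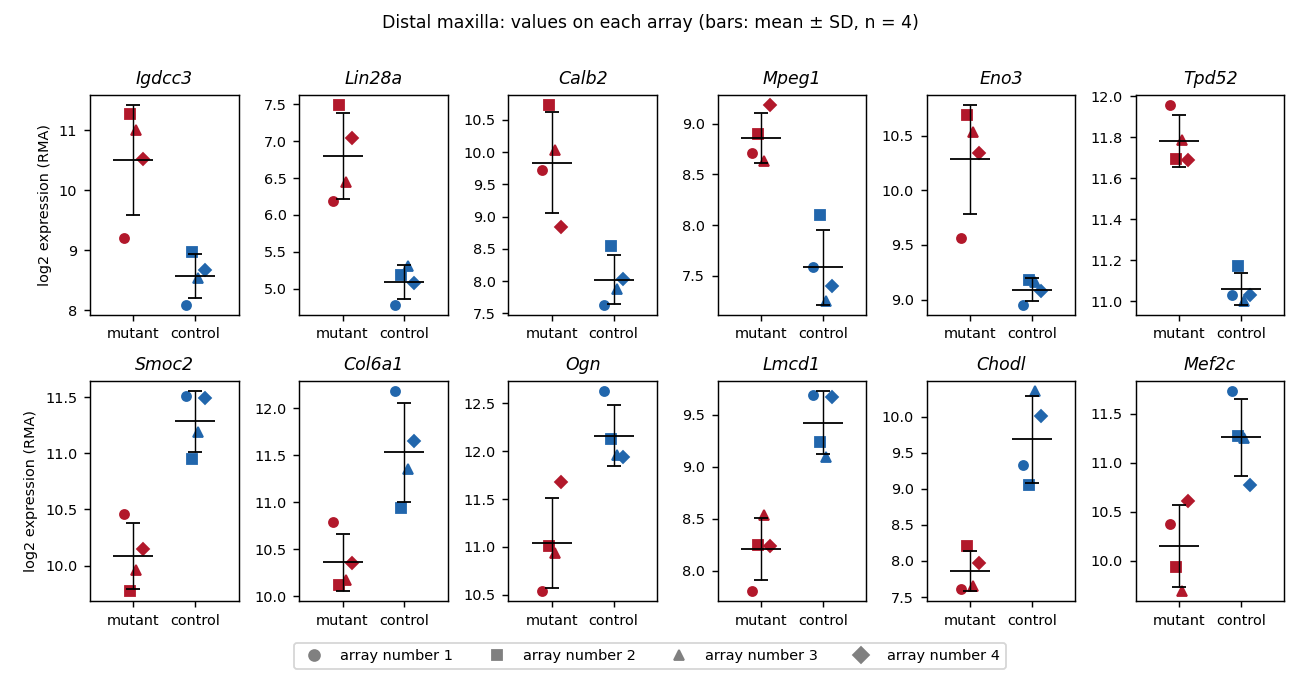
Log2 expression on each of the 4 mutant (red, left) and 4 control (blue, right) arrays for 6 genes that rose and 6 that fell, with the mean and SD as bars and the array number as the symbol. In all 12 genes the 2 groups are separate, closest in Col6a1, where mutant array 1 has 10.79 and control array 2 has 10.93, and in Mef2c, where mutant array 4 has 10.61 and control array 4 has 10.78.

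The largest rise among the called genes was in Igdcc3, an immunoglobulin superfamily membrane protein gene, and the third largest in Lin28a. LIN28A is an RNA-binding protein that blocks maturation of the let-7 microRNAs, and it is normally high in early embryonic cells and lower later. The mature let-7 family is recognised by its seed, bases 2 to 8, which pairs with target transcripts. The arrays do not measure let-7, and 5 of the 9 RefSeq family members looked up are printed to show what they share, with the seed in capitals. All 9 carried the seed GAGGUAG.
mmu-let-7a-5p: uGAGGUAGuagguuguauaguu
mmu-let-7b-5p: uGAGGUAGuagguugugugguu
mmu-let-7g-5p: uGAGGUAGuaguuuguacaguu
mmu-let-7i-5p: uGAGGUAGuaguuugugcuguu
mmu-miR-98-5p: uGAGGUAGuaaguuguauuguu

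In RefSeq's GRCm38.p6 annotation, mmu-let-7a-5p lies at chr13:48538239-48538260 (minus strand), mmu-let-7b-5p at chr15:85707325-85707346 (plus), mmu-let-7g-5p at chr9:106178846-106178867 (plus), mmu-let-7i-5p at chr10:122985698-122985719 (minus) and mmu-miR-98-5p at chrX:151913229-151913250 (plus).

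Igdcc3 read 9.21, 11.28, 11.01 and 10.52 in the mutants, against 8.10, 8.98, 8.54 and 8.68 in the controls, a 3.82-fold higher mean (1.93 ± 0.30, adjusted p = 0.00307). The groups were separate, with mutant array 1 nearest to the controls. Lin28a had 6.19, 7.49, 6.45 and 7.04 in the mutants, against 4.78, 5.19, 5.31 and 5.08 in the controls (1.71 ± 0.26, adjusted p = 0.00307). All 4 control arrays and 2 of the mutant arrays lay under the low-signal level, array percentile 40, so the size is approximate. Nr6a1, an orphan nuclear receptor gene of early embryonic cells, rose by 0.38 ± 0.09 (adjusted p = 0.0403), with 7.50 to 7.59 in the mutants against 7.08 to 7.20 in the controls. These 3 were the calls among 22 measured genes linked to Lin28 and let-7, with 0 lower, 19 not past the test and a median of 0.13, against 0.358% of all genes called higher.

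The other members of that list were mixed. Sall4, a zinc finger factor gene of pluripotent cells, averaged 10.05 ± 0.91 in the mutants and 8.71 ± 0.74 in the controls (SD, n = 4 each) and did not pass (1.33 ± 0.40, adjusted p = 0.108). Fign, a microtubule-severing enzyme gene, differed by 0.98 ± 0.25 (adjusted p = 0.058), and Trim71, a ubiquitin ligase gene that let-7 represses, by 0.78 ± 0.28 (adjusted p = 0.196). The let-7 targets Hmga2 (-0.37, adjusted p = 0.316) and Igf2bp1 (0.08, adjusted p = 0.892) did not pass. Mutant array 1 was the lowest mutant array for Igdcc3, Lin28a, Sall4, Fign, Trim71 and Hmga2. Without it and control array 2, 7 of the 22 passed as higher, including Fign (1.42, adjusted p = 0.00142) and Sall4 (1.49, adjusted p = 0.0289).

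Macrophage genes made up a group of rises in the mutant distal maxilla. Of 24 measured macrophage markers 5 rose, 0 fell and 19 did not pass, with 22 differences above 0 and a median of 0.82, against 0.358% of all genes called higher. At an unadjusted p under 0.05 in limma's test, 19 markers were higher and 2 lower, the lowest at -0.72. Of all genes, 12.9% were at that level. Leaving out 1 array gave 3 to 13 rises, with 13 without mutant array 1 and 12 without control array 2. Mpeg1, which encodes the pore-forming protein perforin-2, read 8.71, 8.90, 8.63 and 9.19 in the mutants, against 7.59, 8.10, 7.25 and 7.40 in the controls. All mutant values were above the controls, 2.41-fold on average (1.27 ± 0.20, adjusted p = 0.00307). Ms4a7, a membrane protein gene of macrophages, had 8.26, 9.72, 9.41 and 9.76 in the mutants, against 7.84, 8.31, 7.03 and 7.34 in the controls (1.66 ± 0.29, adjusted p = 0.00477). Its groups overlapped, because mutant array 1 was below control array 2. The C3a receptor gene C3ar1 (0.78 ± 0.14, adjusted p = 0.00593), the IgG receptor gene Fcgr3 (1.02 ± 0.22, adjusted p = 0.028) and the lipid-sensing receptor gene Trem2 (0.48 ± 0.12, adjusted p = 0.0478) completed the 5, each with separate groups. Trem2 did not pass without mutant array 1 and control array 2 (0.49, adjusted p = 0.0566), whereas the others of the 5 did.

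The 3 chains of complement C1q, made by tissue macrophages, did not pass, with differences of 0.85 for C1qa, 0.91 for C1qb and 0.98 for C1qc (adjusted p = 0.106, 0.175 and 0.0845). On mutant array 1 they read 8.41, 9.01 and 8.61, near the controls, whereas the other mutant arrays had C1qb at 10.47 to 10.95 against 9.01 to 10.07 in the controls. Mean macrophage marker levels were 8.31, 9.23, 8.99 and 9.37 on the mutant arrays, against 8.37, 8.72, 7.87 and 8.05 on the control arrays, so that mutant array 1 lay among the controls and control array 2 was the highest of them. Without those 2 arrays 18 of the 24 markers passed as higher, all 3 C1q chains among them (adjusted p = 0.00186, 0.000887 and 0.00114), 1 passed as lower, and the median was 1.18.

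Of 15 neutrophil and myeloid progenitor markers 8 were measured, with 1 rise, 0 falls and a median of 0.99. Differences were above 0 for 6 and below 0 for 2, the lowest at -0.72, and 0.358% of all genes were called higher. The riser, Ngp, is a granule protein gene of developing neutrophils and read 8.74, 9.46, 9.39 and 9.49 in the mutants, against 7.26, 8.02, 7.01 and 8.02 in the controls (1.69 ± 0.38, adjusted p = 0.0338). S100a9, Camp and Ltf, which also encode neutrophil proteins, had separate groups without passing, with differences of 2.33, 1.05 and 0.92 (adjusted p = 0.129, 0.137 and 0.0576). Of 9 erythroid markers 0 passed after adjustment, with 1 higher and 1 lower at an unadjusted p under 0.05 and a median of -0.10. Of all genes, 12.9% were at that unadjusted level, 668 higher and 1105 lower. Among 25 endothelial markers 1 fell, against 0.43% of all genes called lower, and the median was -0.16. This was Erg, an ETS family transcription factor gene of endothelium and cartilage. Erg read 7.36, 9.26, 8.76 and 9.41 in the mutants, against 10.60, 10.33, 9.84 and 9.52 in the controls (-1.38 ± 0.32, adjusted p = 0.0413). Its groups were separate, but mutant array 1 was far below the rest, and Erg did not pass without that array and control array 2 (-0.84, adjusted p = 0.115).

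Neuron markers had higher means in the mutant distal maxilla, and few passed the test. All 24 measured neuron markers had differences above 0, with a median of 1.00, of which 2 rose and 22 did not pass. Over all genes 43.3% had a difference above 0 and 0.358% were called higher. In 7 of the 24 the mutant arrays were all above the controls, as they were in 2.18% of all genes. Calb2, which encodes the calcium-binding protein calretinin, read 9.72, 10.73, 10.04 and 8.84 in the mutants, against 7.63, 8.54, 7.88 and 8.03 in the controls (1.81 ± 0.30, adjusted p = 0.00307). Nhlh1, a helix-loop-helix factor gene of newly formed neurons, had 9.27, 8.60, 8.27 and 7.78 in the mutants, against 7.41, 7.21, 7.13 and 6.92 in the controls (1.31 ± 0.31, adjusted p = 0.0435). Both had separate groups, with the lowest mutant value on array 4. Nhlh1 did not pass without mutant array 1 and control array 2 (1.06, adjusted p = 0.0909).

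Calb2 and Nhlh1 were also the rises among 16 olfactory epithelium markers, since the lists share members, and the median of the olfactory list was 0.76. Its mean level was 10.28, 10.23, 10.08 and 9.95 on the mutant arrays, against 9.38, 9.83, 9.25 and 9.22 on the control arrays, with no overlap. Mean neuron marker levels were 9.34, 10.08, 9.79 and 10.36 in the mutants, against 8.56, 9.47, 8.72 and 8.84 in the controls, where control array 2 exceeded mutant array 1. Of 11 brain and pituitary markers 0 passed, with 1 higher at an unadjusted p under 0.05 and a median of 0.68. Oral epithelium markers had 0 calls among 22, 5 higher and 0 lower at an unadjusted p under 0.05, and a median of -0.05. Of those 22 differences 10 were above 0 and 12 below, and 4 genes, against 2.18% of all genes, had all mutant arrays above the controls. They were Cldn7, Krt8, Krt18 at 11.14 to 11.48 in the mutants against 10.25 to 10.75 in the controls, and Epcam at 12.80 to 13.03 in the mutants against 12.11 to 12.51 in the controls. Krt18 and Epcam did not pass (adjusted p = 0.203 and 0.207), nor did Cldn7 and Krt8 (adjusted p = 0.259 and 0.272). The lists of pericyte and smooth muscle (11 measured), Schwann cell and glia (9), pigment cell (5), tooth germ (16), cell cycle inhibitor and apoptosis (18) and imprinted genes (18) had 0 calls in limma's test. At an unadjusted p under 0.05 they had 0, 1, 1, 1, 3 and 0 higher and 2, 0, 0, 0, 3 and 2 lower members in that order. The share of all genes at that level was 12.9%, with 668 higher and 1105 lower. The share of nasal or neural tissue in each dissected piece was not recorded in the labels, and its part in these differences was not tested.

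**Figure D3:**
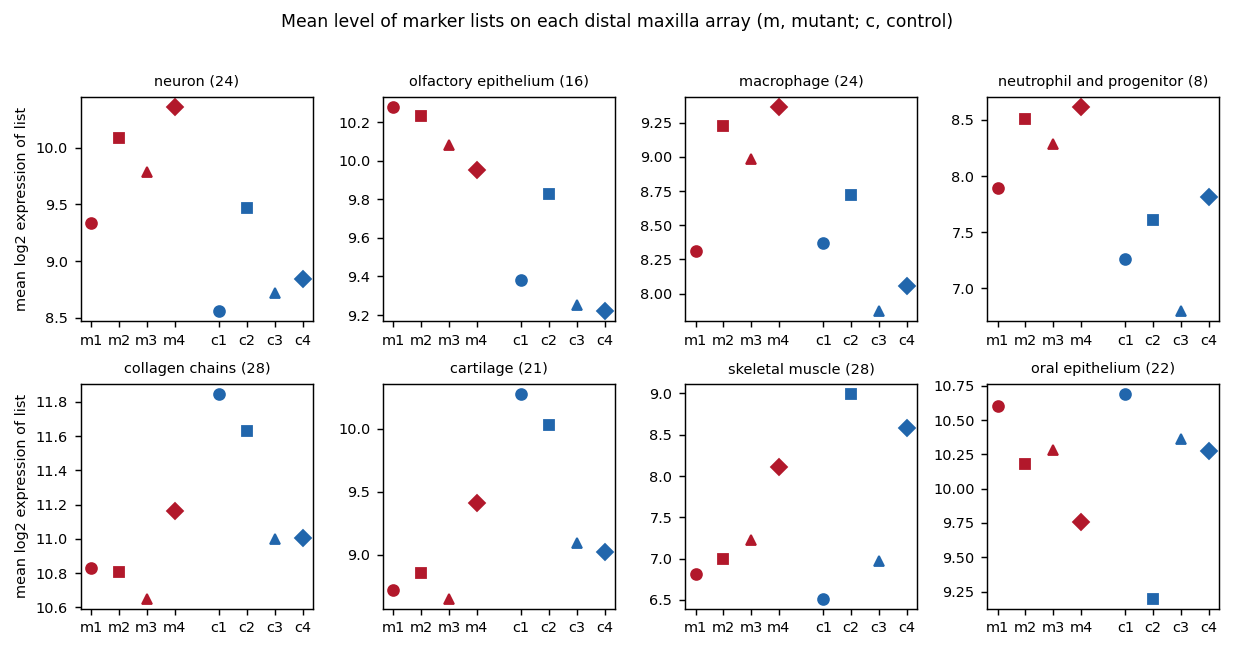
Mean log2 level of 8 marker lists on each array, with the number of genes measured in brackets, mutant arrays (m1 to m4, red) left of control arrays (c1 to c4, blue). The olfactory epithelium and neutrophil lists are separate between the groups, whereas the muscle and oral epithelium lists vary mostly between arrays of a genotype.

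Transcription factor genes outside those lists changed in both directions. Mef2c, a factor gene of neural crest and muscle differentiation, fell, and its 5 probe sets past the filter had differences of -1.15 to -1.03. The tested probe set read 10.37, 9.94, 9.69 and 10.61 in the mutants, against 11.73, 11.27, 11.25 and 10.78 in the controls (-1.11 ± 0.25, adjusted p = 0.0348). Nfix, a nuclear factor I gene, had 11.22, 10.36, 10.39 and 10.42 in the mutants, against 12.55, 11.73, 11.42 and 11.44 in the controls (-1.19 ± 0.29, adjusted p = 0.0478). Both genes had separate groups. Eomes, a T-box factor gene, rose to 7.14, 8.25, 7.69 and 7.32 in the mutants, against 6.33, 6.63, 6.28 and 6.45 in the controls, all 4 of which lay under the low-signal level (1.17 ± 0.21, adjusted p = 0.00593). Dach1, a transcriptional cofactor gene, rose by 1.11 ± 0.27 (adjusted p = 0.0478) with overlapping groups.

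Of 38 factors of the upper jaw and palate 0 passed after adjustment, with 2 higher and 8 lower at an unadjusted p under 0.05 and a median of -0.08. Osr1, a zinc finger factor gene of palate and tongue mesenchyme, came closest with separate groups, at 10.05, 9.32, 9.92 and 9.86 in the mutants against 12.23, 10.31, 11.28 and 11.06 in the controls (-1.43 ± 0.36, adjusted p = 0.0538). Tbx22, a T-box gene required for palate formation, had 10.48, 11.37, 11.28 and 11.02 in the mutants, against 7.20, 11.30, 9.41 and 9.82 in the controls (1.60 ± 0.48, adjusted p = 0.113). The control values of Tbx22 spanned a wider range than the difference, and control array 2 lay among the mutants. Without mutant array 1 and control array 2, Osr1 (-1.83, adjusted p = 0.0102) and Tbx22 (2.41, adjusted p = 0.00259) both passed. None of the 18 jaw identity genes passed in limma's test, 1 of them higher and 0 lower at an unadjusted p under 0.05. Wnt pathway genes (33) and Hedgehog and FGF genes (26) had 0 calls, with 1 and 0 higher and 3 and 3 lower at an unadjusted p under 0.05, and medians of -0.24 and -0.16. For comparison, 12.9% of all genes were at that level, 668 higher and 1105 lower.

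Genes of axon guidance and adhesion gave 4 falls and 0 rises among 26, with 22 not past the test and a median of -0.20, against 0.43% of all genes called lower. Leaving out 1 array gave 1 to 4 falls, with 1 without mutant array 1, control array 1 or control array 3. Chodl, which encodes the lectin-domain membrane protein chondrolectin, was the largest fall among the called genes, at 7.61, 8.20, 7.66 and 7.97 in the mutants, against 9.32, 9.05, 10.36 and 10.01 in the controls, a 3.54-fold lower mean (-1.83 ± 0.36, adjusted p = 0.0133). The groups lay well apart. The netrin receptor gene Unc5d (-1.10 ± 0.24, adjusted p = 0.0258), the leucine-rich repeat gene Lrrn1 (-1.22 ± 0.28, adjusted p = 0.0376) and the Robo ligand gene Slit3 (-0.71 ± 0.17, adjusted p = 0.0426) also fell with separate groups. Without mutant array 1 and control array 2, Unc5d (-0.68, adjusted p = 0.105) and Slit3 (-0.69, adjusted p = 0.0575) did not pass in limma's test. Chodl (adjusted p = 0.00899) and Lrrn1 (adjusted p = 0.0334) did.

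Several called genes belonged to none of these groups. Pde1a, a calmodulin-dependent phosphodiesterase gene, read 6.75, 7.41, 6.93 and 6.87 in the mutants, against 8.34, 7.71, 9.09 and 8.70 in the controls (-1.47 ± 0.26, adjusted p = 0.00593). Eno3, the muscle-type enolase gene of glycolysis, had 9.57, 10.69, 10.54 and 10.34 in the mutants, against 8.95, 9.18, 9.16 and 9.07 in the controls (1.19 ± 0.18, adjusted p = 0.00307). It was the 1 rise among 21 hypoxia and glycolysis genes, of which 20 had differences above 0 (median 0.20). Of all genes, 0.358% were called higher and 43.3% had a difference above 0. Hsd11b2, whose product inactivates glucocorticoids, rose by 1.48 ± 0.28 (adjusted p = 0.0118), with 9.66 to 10.43 in the mutants against 7.94 to 9.45 in the controls. The retinoic acid binding protein gene Crabp1 rose by 0.75 ± 0.18 (adjusted p = 0.0447) with overlapping groups, and the other 12 of 13 retinoic acid genes did not pass. Without mutant array 1 and control array 2, Crabp1 did not pass either (0.53, adjusted p = 0.134). Proliferation genes had 0 calls among 24 in limma's test, 0 higher and 1 lower at an unadjusted p under 0.05, and a median of 0.01. The share of all genes at that unadjusted level was 12.9%. The remaining genes among the 15 largest rises were Cystm1 (1.31) and A930009L07Rik (1.05), and among the 15 largest falls Caln1 (-1.26), Prr16 (-1.22), Sbspon (-1.19) and Wscd2 (-1.08). Caln1 lay under the low-signal level on all 4 mutant arrays, Sbspon on 3 of them and A930009L07Rik on all 4 control arrays, so these sizes are approximate. The other Cystm1 probe set past the filter differed by 0.10 and did not pass.

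Leaving out each of the 8 arrays in turn, 17 of the 108 genes passed every time, 13 higher and 4 lower in the mutant. Among those already described, Tgfbr1, Igdcc3, Lin28a, Calb2, Ms4a7, Mpeg1, C3ar1, Eno3, Eomes, Smoc2 and Pde1a were in this set, as were Kcnh8, Tpd52 and Mgst3. The other 3 were named after their values were seen. Rps6, the ribosomal protein S6 gene, read 9.82 to 10.43 in the mutants against 10.89 to 10.92 in the controls (-0.67 ± 0.11, adjusted p = 0.00307). H2az2, a histone H2A.Z gene, read 13.31 to 13.45 in the mutants against 13.62 to 13.85 in the controls (-0.41 ± 0.07, adjusted p = 0.00477), and Rgl3, a Ral exchange factor gene, 7.49 to 7.84 in the mutants against 6.28 to 6.87 in the controls (1.01 ± 0.18, adjusted p = 0.00477).

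**Figure D4:**
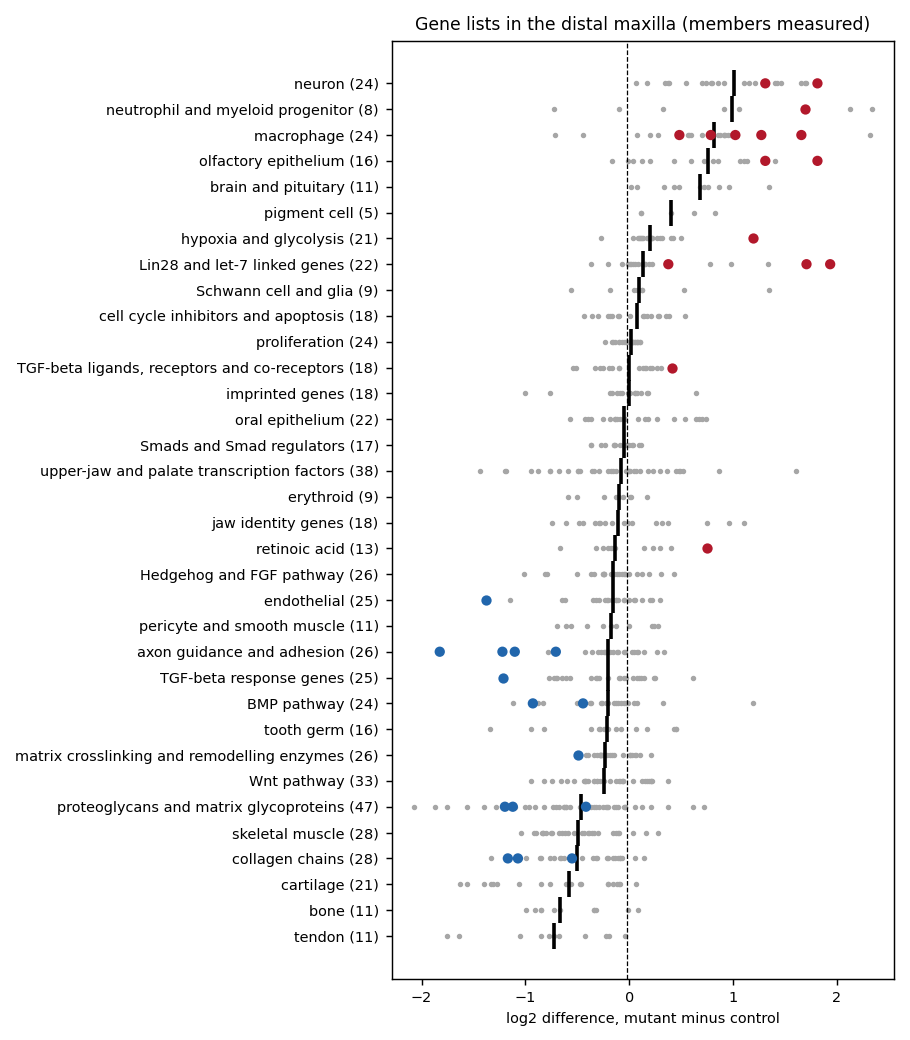
Log2 differences, mutant minus control, of the measured members of each gene list, sorted by the list median (black bar), with red points for members called higher and blue for members called lower, and the median of all genes (-0.03) as a dashed line. Neuron, neutrophil and macrophage markers have medians of 0.82 to 1.00, and cartilage, bone and tendon markers of -0.73 to -0.58.

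In the same fit, 9 genes passed between the genotypes in the proximal maxilla (0.0657%), 262 in the distal mandible (1.91%) and 172 in the proximal mandible (1.26%). The effect of genotype was then set against that in the proximal maxilla, the other end of the same jaw, by testing the difference between the effects. It passed for 8 genes (0.0584%), all with a more positive effect in the distal maxilla. At an unadjusted p under 0.05 there were 655 of the 13705 genes, 380 higher and 275 lower. That share is near the 0.05 that chance alone would give. The 8 were Cpeb1, Nhlh1, Sult4a1, Kcnh8, Tpd52, Mgst3, Nlk and Myt1l, and each of them had risen in the distal maxilla. Cpeb1, which encodes a regulator of translation through polyadenylation, read 7.13, 7.91, 7.70 and 6.98 in the mutants, against 5.79, 6.50, 5.64 and 6.02 in the controls of the distal maxilla. The groups were separate there (1.44 ± 0.31, adjusted p = 0.0237), all 4 controls lay under the low-signal level, and the proximal maxilla gave -1.12 (adjusted p = 0.232). The difference between the ends was 2.56 ± 0.44 for Cpeb1 (adjusted p = 0.0145) and 2.55 ± 0.44 for Nhlh1 (adjusted p = 0.0145), whose proximal effect was -1.24. Nhlh1 averaged 8.48 in mutant and 7.17 in control distal maxilla, and 7.19 in mutant and 8.42 in control proximal maxilla. For Cpeb1 the means were 7.43, 5.99, 5.87 and 6.99 in that order. The part of the dissection in these levels was not tested.

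Smaller differences between the ends were found for the brain sulfotransferase gene Sult4a1 (1.63 ± 0.28), the potassium channel gene Kcnh8 (1.29 ± 0.23), the neuronal zinc finger gene Myt1l (1.19 ± 0.23), Tpd52 (0.92 ± 0.16), the kinase gene Nlk (0.79 ± 0.15) and the glutathione transferase gene Mgst3 (0.69 ± 0.12). Tpd52 read 11.96, 11.69, 11.79 and 11.69 in the mutants, against 11.03, 11.17, 11.00 and 11.03 in the controls of the distal maxilla (0.72 ± 0.12, adjusted p = 0.00307). Its groups lay far apart for their spread, and its effect in the proximal maxilla was -0.20. Kcnh8 lay under the low-signal level on 3 of the 4 control arrays of the distal maxilla, so its size is approximate. Neuron markers had a median effect of 1.00 in the distal and -0.59 in the proximal maxilla, and olfactory markers of 0.76 and -0.28. Macrophage markers had 0.82 and 0.83, and collagen chains -0.50 and -0.30. Without control array 3 of the distal maxilla, or without control array 1 of the proximal maxilla, 0 genes passed this test in limma (532 and 695 at an unadjusted p under 0.05), and without control array 4 of the proximal maxilla 66 passed.

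Against the distal mandible, the same end of the lower jaw, the difference between the effects passed for 14 genes (0.102%), with 13 more positive in the distal maxilla (0.0949%) and 1 more negative (0.0073%). Median effects in the distal maxilla and distal mandible were 0.82 and -0.18 for macrophage markers, 1.00 and -0.23 for neuron markers, and -0.50 and -0.46 for collagen chains. Sult4a1, Tpd52 and Mgst3 were again among them, with 1.43 ± 0.28, 1.03 ± 0.16 and 0.72 ± 0.12 (adjusted p = 0.0417, 0.0157 and 0.0195). The largest values belonged to genes that did not pass in the distal maxilla. Stmn2, a microtubule regulator gene of growing neurons, differed by 0.54 in the distal maxilla (adjusted p = 0.676) and by -2.49 in the distal mandible (adjusted p = 0.00245), and the test of the difference gave 3.03 ± 0.63 (adjusted p = 0.0497). The homeobox gene Emx2 had -0.17 in the distal maxilla and -2.45 in the distal mandible (difference 2.28 ± 0.41, adjusted p = 0.0227), Ebf1 0.12 and -1.92 (2.04 ± 0.42, adjusted p = 0.0497), and Cbln2 0.93 and -1.21 (2.14 ± 0.44, adjusted p = 0.0497). Trpm1, a cation channel gene of pigment cells, was the 1 gene with a more negative effect, with -0.02 in the distal maxilla and 1.17 in the distal mandible (-1.18 ± 0.24, adjusted p = 0.0497). It lay under the low-signal level on all 8 arrays of the distal maxilla. Without mutant array 1, mutant array 2 or control array 3 of the distal mandible, 0 genes passed in limma (948, 831 and 818 at an unadjusted p under 0.05), and without control array 2 of the distal maxilla 26 passed.

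For Igdcc3 and Eno3 neither test between regions passed, with effects in the distal maxilla, proximal maxilla, distal mandible and proximal mandible of 1.93, 1.62, 1.81 and 2.36 for Igdcc3 and 1.19, 1.13, 1.04 and 1.01 for Eno3. Lin28a had 1.71, 1.32, 0.27 and 1.99 in the same order, and the difference from the distal mandible of 1.43 ± 0.37 did not pass (adjusted p = 0.159). Calb2 had 1.81, 0.01, -0.03 and 0.50, and neither its difference from the proximal maxilla (1.80 ± 0.42, adjusted p = 0.116) nor that from the distal mandible (1.84 ± 0.42, adjusted p = 0.106) passed.

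**Figure D5:**
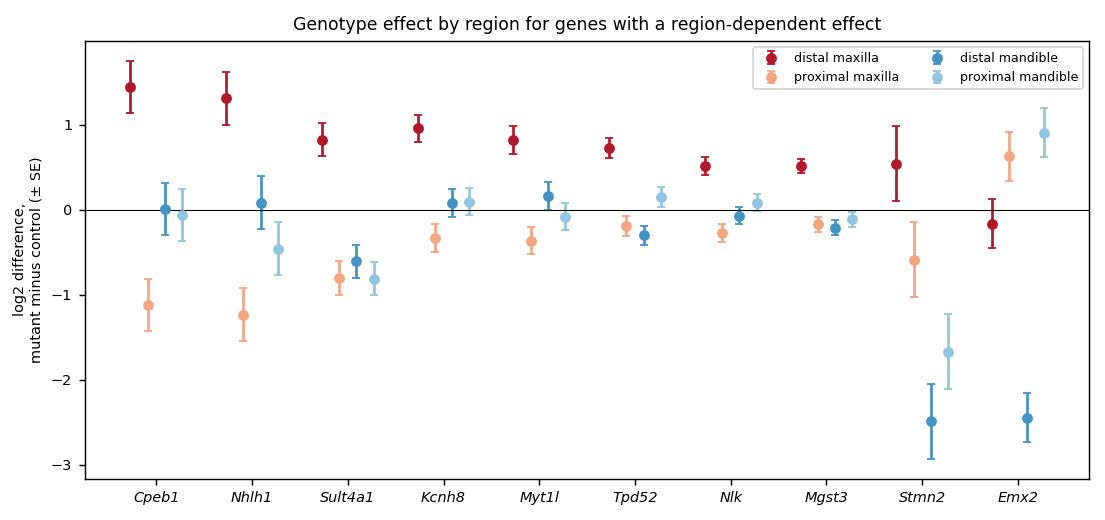
Log2 difference, mutant minus control, with its SE in the 4 regions for 10 genes whose genotype effect differed between regions, the distal maxilla in dark red. Cpeb1 stands at 1.44 in the distal and -1.12 in the proximal maxilla, and Stmn2 at 0.54 in the distal maxilla and -2.49 in the distal mandible.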

How the data were processed

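RNA of each dissected jaw piece was hybridized to expression arrays with 45101 probe sets. The deposited values are log2 expression from RMA, per the submitters' processing notes; the genome build is not given in the sources used here. Probe sets were named from the platform annotation (34945 with 1 symbol, 932 with several, 9160 with none). Those above the array's percentile 40 on at least 4 arrays were kept, and for genes with several, the one brightest on average across the series was used. A model with 8 group means was fitted to all 32 arrays (limma 3.58.1, R 4.3.3), with Benjamini-Hochberg adjustment over 13705 genes and a threshold of 0.05. Differences are mutant minus control, with the SE of the fit. The number of arrays limits the precision. The fit was tested on simulated data.

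Genes were named as the targeted gene, the 15 largest rises and falls among the calls, up to 4 members of each list and 4 of each test between regions, with exceptions marked where they stand. The members and lists were chosen with earlier results of these data known. Alternatives covered the filter, probe sets, scaling, spread, arrays and a replicate block. The pairing of array numbers was checked from their deviations.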

Additional observations from a re-analysis of the deposited data

Results flagged for a closer look

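In groups of 4 arrays, 20 values of the 182 groups looked at (10.99%) stood apart from the other 3 arrays by more than Dixon's critical share of the group's range, which chance exceeds in about 1 in 20 groups. Mutant array 1 gave 8 of them and control array 2 gave 7. On mutant array 1 these were Ngp (8.74), Nfix (11.22), Acvr1 (10.24), Col6a2 (12.03), Hmga2 (12.15), Emilin1 (10.80), Rspo3 (8.83) and Lhx8 (8.88). On control array 2 they were Col26a1 (11.73), Tpd52 (11.17), Bmpr1b (10.20), Tnmd (7.72), Epcam (12.11), Krt8 (10.61) and Sox18 (10.65). The others were Crabp1 (13.10), Cbln2 (8.79) and Otor (8.21) on mutant array 4, and Nr6a1 (7.08) and H2az2 (13.62) on control array 1.

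The genotype effect differed between regions in the test of the difference itself for 8 genes against the proximal maxilla and 14 against the distal mandible. Against the proximal maxilla these were Cpeb1 (2.56), Nhlh1 (2.55), Sult4a1 (1.63), Kcnh8 (1.29), Myt1l (1.19), Tpd52 (0.92), Nlk (0.79) and Mgst3 (0.69). Against the distal mandible they were Stmn2 (3.03), Emx2 (2.28), Cbln2 (2.14), Ebf1 (2.04), Dnajc6 (1.53), Sult4a1 (1.43), Tpd52 (1.03), Mgst3 (0.72) and Trpm1 (-1.18), with Ptprc (1.56), Syn3 (1.49), Srgn (1.40), Retreg1 (1.04) and Glipr1 (0.90) as the others that passed.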

How the results depend on the processing

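The 108 calls became 182 with each array centred on its median, 336 with number 1 as a covariate and 2480 with array weights. Fitting fewer arrays gave 2 calls on the 8 arrays of the distal maxilla, and 0 in limma on the 16 arrays of the maxilla (1310 genes at an unadjusted p under 0.05). Leaving out arrays gave 12 to 328 calls when a single array or number was omitted, 419 without mutant array 1 and control array 2, and 219 without mutant array 4 and control array 2, this pair having been chosen after seeing the data. No named gene that passed in either setting changed sign under the alternatives run, whereas list medians near 0 did in some, such as oral epithelium (0.25 without control array 1), and skeletal muscle did (0.18 without mutant array 1 and control array 2). The 8 calls against the proximal maxilla became 13 with centring, 453 with array weights and 24 with genotype and number as a random block. Omitting a single array gave 0 to 66 calls there, and omitting 1 number from all maxilla groups gave 0 to 116. The 14 calls against the distal mandible became 6 without the low-signal filter, 4 with the mean of a gene's probe sets, 910 with array weights and 37 with the random block. They became 0 to 26 when a single array or number was omitted. The causes were not tested.

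Same-numbered mutant and control arrays deviated together at correlations of 0.37, -0.02, 0.50 and -0.35 for numbers 1 to 4, so the numbers were not taken as pairs, although mutant and control arrays 1 also shared high spike-in values. With a replicate block on that number, 315 genes passed over all 32 arrays, 0 in limma on the 8 arrays alone (1016 at an unadjusted p under 0.05), and 8 and 13 in the tests between regions.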
